A study of Mus musculus with 36 samples.

Results

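Livers of THRBKO and THRBWT mice were compared at a single sampling time, ZT10, which is 10 h after lights on and close to the end of the rest phase of nocturnal mice. The comparison rested on 6 of the 36 liver libraries of the series, 3 per genotype, and on the 14193 protein-coding genes that had a sum of at least 100 counts over all 36 libraries, out of 22046 protein-coding genes in the deposited table. The mice were males of 2 to 3 months on the C57Bl/6NCrl background, fed regular chow ad libitum and kept in 12 h of light and 12 h of dark at 22 °C. THRBKO mice were homozygous for B6.129S1-Thrbtm1Df/J, an allele that affects both THRB isoforms and impairs DNA binding of the receptor. The controls, called THRBWT here, were heterozygous for the same allele (THRB+/-), so that every mouse carried at least 1 altered copy. The allele was present in the whole body, and the liver values therefore do not separate effects in hepatocytes from those of other cells or of circulating hormone.

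THRB is a nuclear receptor for the thyroid hormone T3 and the main form of this receptor in hepatocytes. It binds DNA as a partner of the retinoid X receptors, recruits corepressors such as NCOR1 and HDAC3 without hormone, and exchanges them for coactivators when T3 is bound. In liver it is known for its control of deiodination, lipogenesis, cholesterol and bile acid handling. A comparison within a single sampling time holds no differences in time of day between the mice compared.

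The 6 libraries held from 31931089 to 39913574 counts on genes. Levels are given as CPM, the count of a gene relative to the total of its library after TMM scaling. The log2 fold change is always THRBKO minus THRBWT, and SE is its standard error. Between any 2 of the 6 libraries, log2 CPM values over genes correlated at 0.977 to 0.989, and the 3 pairs of THRBKO libraries at 0.983 to 0.986. Among the hepatocyte markers, *Alb* had from 49334 to 61760 CPM in every library. The 5 adipocyte markers and 7 of 8 pancreatic acinar markers did not reach the count minimum.

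*Thrb* itself (chromosome 14, 17660261 to 18038090 on the plus strand of GRCm38) had 25.9, 27.8 and 29.6 CPM in the THRBWT libraries a, b and c and 31.5, 37.7 and 31.1 CPM in the THRBKO libraries a, b and c. The values did not overlap, with all THRBKO libraries above the controls. The log2 fold change was 0.27 (SE 0.132) with an unadjusted p of 0.0505 and an adjusted p of 1 from the quasi-likelihood F test of edgeR. Reads were counted per gene and not per exon, so these counts neither show the altered exon nor check which library was THRBKO.

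At an adjusted p under 0.05, 1 of the 14193 genes was called at ZT10 (0.00705%), the protease gene *Ctsc*, which rose in THRBKO livers. An unadjusted p under 0.05 was found for 549 genes (3.87%), 246 higher (1.73%) and 303 lower (2.13%) in THRBKO livers. DESeq2 also called 1 gene, with 521 at an unadjusted p under 0.05 (3.67%). With mice of the same letter taken as pairs, edgeR called no gene (0 of 14193, 0.0%), with 824 at an unadjusted p under 0.05 (5.81%), and the adjusted p of *Ctsc* was 0.232. Log2 fold changes had a median of -0.0081, and 95% of genes lay between -0.71 and 0.77. The median standard error was 0.164, and 0.135 among the 10978 genes with a mean of at least 50 counts. The 3 THRBKO values lay above all THRBWT values in 547 genes (3.85%) and below them in 553 genes (3.9%).

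*Ctsc* encodes cathepsin C, a lysosomal dipeptidyl peptidase that activates serine proteases of immune cell granules. It lies on chromosome 7 from 88278085 to 88310888 (plus strand). It had 77.5, 81.8 and 82.3 CPM in THRBWT livers and 160, 152 and 122 CPM in THRBKO livers. The lowest THRBKO value was thus well above the highest THRBWT value, and the means were 80.5 ± 2.66 and 145 ± 20.2 CPM (SD, n = 3 each), a ratio of 1.80. The log2 fold change was 0.85 (SE 0.156, adjusted p = 0.0475 by edgeR). The call depended on the setting. The adjusted p was 0.274 with the ZT10 libraries fitted alone and between 0.156 and 0.439 without any 1 of the libraries THRBWT a, THRBWT b, THRBWT c, THRBKO a or THRBKO b, whereas it was 0.0175 without THRBKO c. The log2 fold change stayed between 0.77 and 0.96 in all of these fits. In the 30 mice of the other 5 sampling times, which share no library with ZT10, the mean log2 fold change of *Ctsc* was 0.60 (SE 0.0695, adjusted p = 4.4e-06) and the THRBKO mean was higher at 5 of 5 times. *Ctsc* is also expressed by macrophages. Of the 11 Kupffer cell and macrophage markers, 10 had a log2 fold change above 0 at ZT10 (47.7% of all genes had). The median of the 11 was 0.18 at ZT10 and -0.11 at the other times. None of the 11 had an unadjusted p under 0.05 at ZT10. Their summed level was 445, 267 and 218 CPM in THRBWT and 414, 347 and 292 CPM in THRBKO livers, and their part in the *Ctsc* value was not tested. A long non-coding gene overlaps *Ctsc* on the opposite strand, and the libraries do not keep the strand.

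THRB binds DNA at AGGTCA half-sites, most often as a direct repeat with 4 bases between the copies. The 250 bases before the annotated start of *Ctsc*, of *Dio1* and of *Papss2* are shown because these genes carry the genotype difference at ZT10 or at the other times, and because thyroid hormone response is often sought close to the start. The sequences are from RefSeq (GRCm38.p6), 5′ to 3′ on the strand of the gene, with a half-site on either strand in capitals.
Ctsc, chr7:88277835-88278084, plus strand: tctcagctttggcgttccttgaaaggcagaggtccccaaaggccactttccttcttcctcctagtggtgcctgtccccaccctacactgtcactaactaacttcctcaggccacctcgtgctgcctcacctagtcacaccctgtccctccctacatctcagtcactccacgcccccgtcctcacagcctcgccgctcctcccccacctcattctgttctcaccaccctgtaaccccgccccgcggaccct
Dio1, chr4:107307169-107307418, minus strand: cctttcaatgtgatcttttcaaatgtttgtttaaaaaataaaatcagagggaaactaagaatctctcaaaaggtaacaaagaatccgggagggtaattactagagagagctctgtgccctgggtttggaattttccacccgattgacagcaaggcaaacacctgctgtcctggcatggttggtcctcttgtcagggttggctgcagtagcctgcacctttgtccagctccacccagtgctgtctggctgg
Papss2, chr19:32619755-32620004, plus strand: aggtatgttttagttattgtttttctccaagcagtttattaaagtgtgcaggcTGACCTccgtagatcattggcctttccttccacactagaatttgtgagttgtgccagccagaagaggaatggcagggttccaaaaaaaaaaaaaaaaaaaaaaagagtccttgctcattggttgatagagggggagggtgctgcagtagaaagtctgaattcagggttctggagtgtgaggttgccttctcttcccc
Neither *Ctsc* nor *Dio1* held the 6 letters in this window. *Papss2*, which encodes the synthase of the sulfate donor used by sulfotransferases, held 1 half-site on the opposite strand, 197 bases before the start. AGGTCA was present on either strand before 4607 of all 32851 starts of the table, before 11.5% of the 14096 starts of tested protein-coding genes (11068 genes matched by symbol), before 8 of 69 starts (11.6%) of the 54 matched genes that differed at the other sampling times and before 2 of 13 starts (15.4%) of the 7 matched genes among the 10 with the smallest p at ZT10. The direct repeat, AGGTCA followed after any 4 bases by AGGTCA, was present before 0.0152% of all starts and before none of the 14096 starts of tested genes. Only exact matches to these letters were counted. Response elements that depart from them, or that lie farther from the start, were not searched.

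The 10 genes with the smallest p at ZT10 that had no overlap between genotypes and a mean of at least 50 counts were *Ctsc*, *Pdp2*, *Tle6*, *Fzd8*, *Epop*, *Ssh3*, *Trmt12*, *Letm1*, *Rabggta* and *Ghitm*, and except for *Ctsc* none passed the adjustment. *Pdp2*, a phosphatase that reactivates the pyruvate dehydrogenase complex, had 36.4, 37.4 and 30.2 CPM in THRBWT and 51.4, 47.8 and 48.6 CPM in THRBKO livers. For *Pdp2* the log2 fold change was 0.51 (SE 0.112, adjusted p = 0.249). All THRBKO libraries were above the highest control. Its mean log2 fold change over the other times was 0.40 (adjusted p = 2.2e-05).

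*Letm1* and *Ghitm* encode proteins of the inner mitochondrial membrane. *Letm1* had 97.0, 107 and 88.7 CPM in THRBWT and 120, 121 and 118 CPM in THRBKO livers, a log2 fold change of 0.29 (SE 0.0797). *Ghitm* had 351, 327 and 311 CPM in THRBWT and 402, 391 and 401 CPM in THRBKO livers, a log2 fold change of 0.27 (SE 0.0758). In both genes the THRBKO libraries lay close together above all controls. *Letm1* also passed the test at the other times (0.22, adjusted p = 8.3e-04), whereas *Ghitm* had 0.052 there (adjusted p = 0.603). *Ghitm* lies 19.1 Mb from *Thrb* on chromosome 14.

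Of the other genes with positive values, *Tle6*, a member of the Groucho family of corepressors, had 3.24, 2.73 and 3.45 CPM in THRBWT and 5.21, 4.64 and 4.48 CPM in THRBKO livers (log2 fold change 0.60, SE 0.146, adjusted p = 0.609). *Ssh3*, a phosphatase of the actin regulator cofilin, had 14.8 to 16.4 CPM in THRBWT and 17.7 to 21.9 CPM in THRBKO livers (log2 fold change 0.33). The THRBKO mean of both was higher at 5 of 5 other times, with mean log2 fold changes of 0.26 (adjusted p = 0.0596) and 0.076 (adjusted p = 0.493).

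Lower values in THRBKO livers were led by *Fzd8*, a receptor for Wnt ligands, with 14.8, 24.3 and 25.4 CPM in THRBWT and 12.6, 12.7 and 9.05 CPM in THRBKO livers. Its log2 fold change was -0.91 (SE 0.226, adjusted p = 0.771), and library THRBWT a lay nearer to the THRBKO libraries than to the other controls. *Epop*, which links elongin B and C to Polycomb repressive complexes, had 9.48, 8.91 and 10.2 CPM in THRBWT and 4.24, 7.50 and 6.69 CPM in THRBKO livers (log2 fold change -0.63). *Trmt12*, a tRNA-modifying enzyme, had 3.96, 4.57 and 3.48 against 2.199, 2.97 and 2.33 CPM (log2 fold change -0.67). *Rabggta*, a subunit of the enzyme that prenylates Rab proteins, had 44.5, 47.7 and 53.6 against 35.9, 41.7 and 41.3 CPM (log2 fold change -0.29). *Rabggta* was the only one of these genes whose THRBKO mean was lower at 5 of 5 other times (mean log2 fold change -0.13, adjusted p = 0.0997). *Fzd8*, *Epop* and *Trmt12* had -0.0079, 0.074 and -0.045 there.

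**Figure D1:**
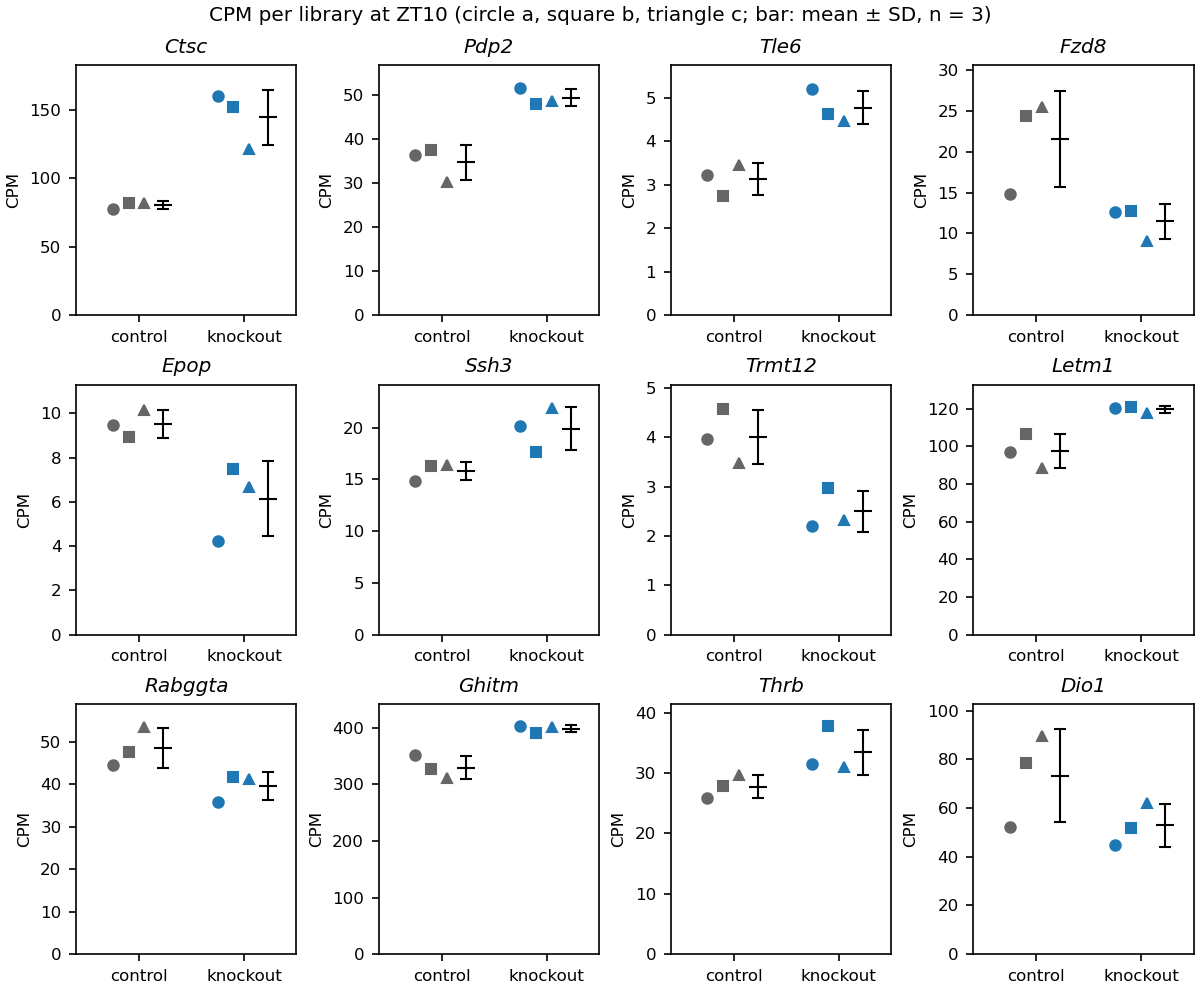
CPM of the 10 genes with the smallest p at ZT10, of *Thrb* and of *Dio1* in each of the 6 libraries (y axis, linear from 0), with THRBWT (control) in grey and THRBKO (knockout) in blue, letters a, b and c as circle, square and triangle, and mean ± SD as black bars. The genotypes do not overlap for any gene but *Dio1*, in which THRBWT a lies among the THRBKO libraries and THRBKO c above THRBWT a.

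Among the genes of every biotype (17994 tested, 3 called, 0.0167%), 2 further genes were called at ZT10, both pseudogenes. *9030619P08Rik*, annotated as a transcribed unprocessed pseudogene on chromosome 15, had 4.34, 5.56 and 3.63 CPM in THRBWT and 68.9, 43.4 and 49.4 CPM in THRBKO livers, a log2 fold change of 3.58 (SE 0.457, adjusted p = 1.1e-04). *Gm10020*, a processed pseudogene also on chromosome 15, had 10.02, 11.6 and 13.0 CPM in THRBWT and 21.4, 24.6 and 23.4 CPM in THRBKO livers, a log2 fold change of 1.01 (SE 0.0853, adjusted p = 2.4e-08). Both separated the genotypes without overlap at ZT10. *Gm10020* is 99.7% identical over its 612 bases to the transcript of *Rpl15*, a ribosomal protein gene that lies 0.23 Mb from *Thrb*. *Rpl15* had 129, 132 and 139 CPM in THRBWT and 110, 114 and 120 CPM in THRBKO livers (log2 fold change -0.22, unadjusted p = 0.0039). The copies *Rpl15-ps2* and *Rpl15-ps3* are 98.7% and 100% identical to the *Rpl15* transcript. Reads can be exchanged between all these copies, and the part of such exchange in the values was not tested.

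Of the 18 listed thyroid hormone targets of liver, all tested, none was called at ZT10 and 1 (*Gpd2*) had an unadjusted p under 0.05 (3.87% of all genes had). The median log2 fold change of the 18 was 0.043, beside -0.0081 over all genes. *Dio1*, the type 1 deiodinase that converts T4 to T3 and a classical target of THRB, had 52.1, 78.6 and 89.5 CPM in THRBWT and 44.7, 52.0 and 62.2 CPM in THRBKO livers. The genotypes overlapped, since THRBWT a was as low as THRBKO b. The log2 fold change was -0.47 (SE 0.343, unadjusted p = 0.181), and -0.30 without THRBWT c. With mice of the same letter paired, each THRBKO mouse was lower than the control of its letter and the unadjusted p was 0.0046, with an adjusted p of 0.676. In the 15 mice per genotype of the other times *Dio1* had a mean log2 fold change of -1.06 (SE 0.154, adjusted p = 2.0e-04) and was lower at 5 of 5 times. The ZT10 value did not differ from that mean by the test of the difference (0.59, unadjusted p = 0.124), and the log2 fold changes at ZT2, ZT6, ZT14, ZT18 and ZT22 were -1.12, -1.18, -1.07, -0.93 and -1.02.

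*Gpd2*, the mitochondrial glycerol-3-phosphate dehydrogenase and a target that T3 raises, had 25.4, 35.7 and 18.2 CPM in THRBWT and 32.6, 36.5 and 39.9 CPM in THRBKO livers (log2 fold change 0.46, unadjusted p = 0.011), with 0.25 without THRBWT c and 0.73 without THRBWT b. The malic enzyme *Me1* had 320, 366 and 179 against 493, 304 and 467 CPM (0.55, unadjusted p = 0.07). Both overlapped between genotypes. *Thrsp*, a lipogenic target, varied from 316 to 2030 CPM among the controls alone and from 497 to 1162 CPM among THRBKO mice (-0.26, SE 0.557). *Hr*, a corepressor gene, was the only 1 of the 18 targets without overlap (3.85% of all genes lay above the controls in this way). Its level was low in every library, at 0.231 to 0.652 CPM in THRBWT and 0.679 to 0.906 CPM in THRBKO livers. *Pck1* and *Fasn* had log2 fold changes of 0.018 and -0.062.

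The 21 receptors, cofactors, transporters and carriers of thyroid hormone had a median log2 fold change of -0.014, and none had an unadjusted p under 0.05. In 3 of the 21, *Thrb* among them, all THRBKO libraries lay above all controls, and in 0 below them (3.85% and 3.9% of all genes). *Thra*, the other receptor gene, had 16.2, 17.8 and 13.2 CPM in THRBWT and 18.2, 15.7 and 17.2 CPM in THRBKO livers. The retinoid X receptor *Rxra* had 501, 574 and 504 against 527, 606 and 431 CPM. These values overlapped between genotypes. The corepressors *Ncor1* and *Hdac3* had log2 fold changes of 0.093 and -0.030, and the carrier *Ttr* of -0.097.

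None of the 19 circadian clock genes was called or had an unadjusted p under 0.05, and their median log2 fold change was 0.075. ZT10 falls on the rise of *Per2* and after the peak of *Nr1d1* in mouse liver. *Per2* had 59.0, 53.5 and 61.5 CPM in THRBWT and 53.8, 57.5 and 46.9 CPM in THRBKO livers. *Nr1d1*, which encodes REV-ERBα, had 47.2, 98.2 and 53.0 against 92.6, 66.9 and 120 CPM (log2 fold change 0.50, SE 0.278). Both overlapped between the genotypes. The output factor *Dbp* had 123, 194 and 171 against 220, 176 and 220 CPM (0.34, SE 0.394). *Bhlhe41* (4.16 to 5.90 against 7.18 to 10.2 CPM) and *Nr1d2* (80.6 to 101 against 104 to 110 CPM) were without overlap and higher in THRBKO livers, *Nfil3* (13.4 to 15.7 against 10.1 to 12.3 CPM) without overlap and lower, with unadjusted p-values of 0.0873, 0.363 and 0.0682. These 3 of 19 genes are to be read beside the 3.85% and 3.9% of all genes without overlap.

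The mice of the other 5 sampling times gave a reading of the genotype difference that used none of the ZT10 libraries. Over these 30 livers, 73 protein-coding genes were called (0.514% of 14193), 37 higher and 36 lower in THRBKO livers. At ZT10, 34 of the 37 had a log2 fold change above 0 (47.7% of all genes had) and 35 of the 36 one below 0 (52.3% of all genes had). An unadjusted p under 0.05 in the same direction was reached by 16 of the 37 (1.73% of all genes) and 11 of the 36 (2.13% of all genes). The genotypes did not overlap in the same direction in 17 and 6 genes (3.85% and 3.9% of all genes), and in the opposite direction in none. Only *Ctsc* was called in both. The median log2 fold change at ZT10 was 0.28 where it was 0.35 at the other times, and -0.34 where it was -0.60. Since the genes were chosen by their difference at the other times, a smaller size at ZT10 is partly fixed by that choice. Among those more than 20 Mb from *Thrb* or on other chromosomes, 31 of 34 and 31 of 32 had the same direction.

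Among the genes raised at the other times, *Lepr*, the leptin receptor, had 3.24, 3.26 and 4.13 CPM in THRBWT and 11.3, 6.29 and 8.57 CPM in THRBKO livers at ZT10. Its log2 fold change was 1.30 (SE 0.477) beside 0.98 at the other times. *Foxn3*, a forkhead repressor, had 57.9, 55.0 and 57.4 against 69.3, 68.6 and 67.9 CPM, with a narrow spread in each genotype. *Sall1*, a zinc finger repressor, had 25.1, 20.5 and 20.5 against 31.8, 28.6 and 34.4 CPM. *Papss2* had 232, 226 and 228 against 292, 263 and 281 CPM (log2 fold change 0.29, SE 0.175). *Abcd2*, a peroxisomal transporter of very long-chain fatty acids, had 11.3, 18.3 and 30.9 against 34.2, 41.1 and 36.6 CPM (0.89 at ZT10 and 1.11 at the other times). In each of these 5 genes all THRBKO libraries were above all controls.

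Among the genes lowered at the other times, *Prodh*, the proline dehydrogenase of mitochondria, had 337, 232 and 222 CPM in THRBWT and 212, 166 and 176 CPM in THRBKO livers (log2 fold change -0.51 at ZT10 and -0.44 at the other times). *Krt18*, a keratin of simple epithelia, had 148, 173 and 183 against 138, 121 and 139 CPM (-0.34 and -0.33). *Wdr18* had 66.7, 61.1 and 62.3 against 56.0, 54.0 and 56.3 CPM (-0.19 and -0.19). In these 3 genes the genotypes did not overlap. *Slc46a3*, a lysosomal transporter, had 63.0, 54.2 and 42.2 against 47.5, 37.9 and 33.9 CPM with overlap (-0.42 and -0.51).

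The genes with the opposite sign at ZT10 were *Cyp7a1*, *Enpp1* and *Dmxl1* among those raised elsewhere and *Cotl1* among those lowered, a set picked after their values were seen. *Cyp7a1*, the rate-limiting enzyme of bile acid synthesis, had 116, 252 and 147 CPM in THRBWT and 76.5, 223 and 104 CPM in THRBKO livers. The order a, c, b was the same in each genotype, and the log2 fold change was -0.35 (SE 0.446), which became 0.036 without THRBWT b. Over the remaining times it was 0.94 (adjusted p = 0.0186), and the difference between these had an unadjusted p of 0.0139 and an adjusted p of 1. *Enpp1*, *Dmxl1* and *Cotl1* had -0.084, -0.012 and 0.12 at ZT10.

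**Figure D2:**
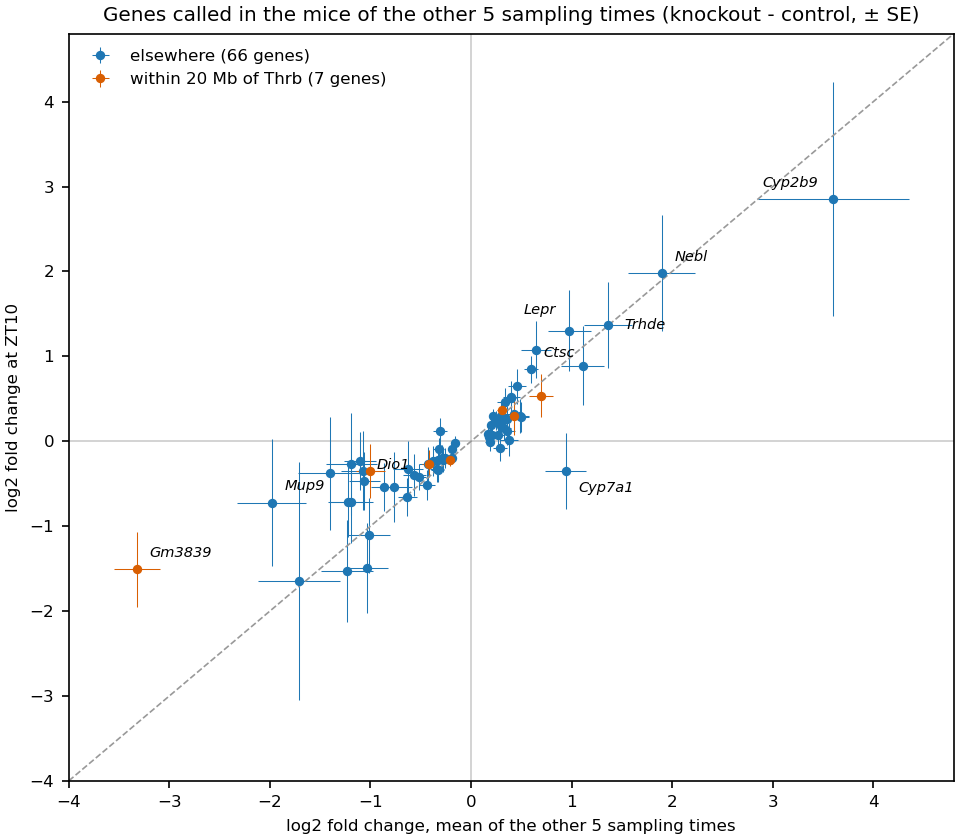
Log2 fold change (THRBKO minus THRBWT) at ZT10 (y axis) against the mean of the other 5 sampling times (x axis) for the 73 genes called at the other times, with standard errors as bars, the line of equal values dashed and the 7 genes within 20 Mb of *Thrb* in orange. Of the 73 points, 69 lie in the quadrants of equal sign, and *Cyp7a1*, at 0.94 and -0.35, is among the 4 others.

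Within 20 Mb of *Thrb*, 149 protein-coding genes were tested, none was called at ZT10, and 10 had an unadjusted p under 0.05 (6.71%, against 3.84% of the 14044 genes elsewhere), 4 higher and 6 lower. At the other times 7 of the 149 were called (4.70%, against 0.47% elsewhere). *Nkiras1*, next to *Rpl15* and overlapping it on the opposite strand, had 29.2, 30.6 and 31.0 CPM in THRBWT and 39.9, 37.2 and 39.9 CPM in THRBKO livers (log2 fold change 0.37, SE 0.107). *Gm3839*, 6.30 Mb from *Thrb*, had 11.3, 11.6 and 8.01 CPM in THRBWT and 0.905, 1.22 and 8.72 CPM in THRBKO livers. Library THRBKO c thus had the level of the controls, while the 15 THRBKO livers of the other times had from 0.421 to 1.20 CPM. The log2 fold change of *Gm3839* was -1.51 with an adjusted p of 0.9, and -3.27 with an adjusted p of 7.4e-07 without THRBKO c.

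Library THRBKO c also stood with the controls in *Abhd6* and *Nid2*, which were called at the other times. *Abhd6*, a lipase gene 9.60 Mb from *Thrb*, had 37.4, 29.6 and 38.9 CPM in THRBWT and 27.0, 21.6 and 39.6 CPM in THRBKO livers, so THRBKO c was above the highest control. *Nid2*, a basement membrane protein gene 1.71 Mb from *Thrb*, had 4.21, 5.25 and 3.42 against 2.39, 2.83 and 4.87 CPM, with THRBKO c inside the range of the controls. Such levels were not limited to chromosome 14. *Cspg5* and *Cd276*, both on chromosome 9 and called at the other times, had 5.41 and 6.15 CPM in THRBKO c. The controls had 3.47 to 5.09 and 3.75 to 7.30 CPM, and THRBKO b, at 3.54 and 4.45 CPM, lay in these ranges as well. In *Nkiras1*, *Rpl15*, *Gm10020* and *9030619P08Rik*, THRBKO c lay with the other THRBKO libraries. Counts per gene do not give the genotype at these positions.

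The lists of liver pathways and of genes named by the study held 494 distinct genes, of which 484 were tested. None was called at ZT10, and 29 had an unadjusted p under 0.05 (3.87% of all genes had). Each list is described below by its counts and median beside the values over all genes, with no test of the list, and in bulk tissue fewer cells of a type cannot be told apart from less RNA per cell.

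Of 32 genes of fatty acid oxidation and ketogenesis, 29 had a log2 fold change above 0 (47.7% of all genes had), with a median of 0.097 and a range of -0.10 to 0.89. *Abcd3*, a peroxisomal fatty acid transporter, had 490, 549 and 414 CPM in THRBWT and 625, 612 and 572 CPM in THRBKO livers (log2 fold change 0.32, unadjusted p = 0.0143). The THRBKO libraries were above all controls in this gene. The summed level of the list was 14447 to 15424 CPM in THRBWT and 15602 to 16819 CPM in THRBKO livers, also without overlap. Its median at the other times was 0.083. Without THRBWT a the ZT10 median was 0.062, and without THRBWT c it was 0.15.

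Of 30 genes of fatty acid synthesis and triglyceride assembly, 13 had positive and 17 negative values, with a median of -0.039. *Plin2*, the coat protein of lipid droplets, had 216, 219 and 165 CPM in THRBWT and 301, 258 and 265 CPM in THRBKO livers at ZT10, without overlap (log2 fold change 0.46, unadjusted p = 0.0211). Over the other times its mean log2 fold change was -0.095, and the THRBKO mean was higher at 0 of 5 times. Its level in both genotypes was lower at ZT10 and ZT14 than at the other times, with THRBWT means of 419, 430, 200, 231, 354 and 445 CPM from ZT2 to ZT22. The 32 genes of cholesterol synthesis and uptake (median 0.023) and the 25 of glucose production, glycolysis and glycogen (median 0.026) had no member with an unadjusted p under 0.05.

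Of 24 genes of bile acid synthesis, conjugation and transport, 2 had an unadjusted p under 0.05 and higher values in THRBKO livers (1.73% of all genes had). The list median was 0.015. *Abcb11*, the bile salt export pump, had 455, 524 and 346 CPM in THRBWT and 603, 514 and 578 CPM in THRBKO livers (log2 fold change 0.36, unadjusted p = 0.0066), with 0.21 without THRBWT c. *Hsd17b4*, a peroxisomal enzyme of side-chain oxidation, had 388, 391 and 376 against 426, 450 and 426 CPM (0.17, unadjusted p = 0.0388). Only the latter was without overlap. A list of 15 lipid genes known as raised in THRBKO livers had a median of 0.19, with 14 above 0, and a list of 9 known as lowered had a median of -0.10, with 8 below 0. Both lists were chosen by the study on the same libraries, so their direction at ZT10 is not independent evidence.

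The xenobiotic P450 genes (28 tested, median 0.11) included 4 with higher and 1 with lower values at an unadjusted p under 0.05. Of all genes, 1.73% were higher and 2.13% lower at that p. Library THRBKO a carried 3 of these P450 genes. *Cyp2b9*, a P450 of female mouse liver, had 7.63, 0.124 and 3.07 CPM in THRBWT and 76.0, 1.78 and 1.79 CPM in THRBKO livers. *Cyp2a22* had 2.44, 0.745 and 1.09 against 11.5, 1.39 and 1.34 CPM. *Cyp2b13* had 2.85 CPM in THRBKO a and at most 0.0932 CPM in the other libraries. Without THRBKO a the log2 fold changes of *Cyp2b9* and *Cyp2a22* were -1.03 and -0.076, and *Cyp2b13* was at 0 in both remaining THRBKO libraries, so the direction of all 3 at ZT10 rested on THRBKO a. *Cyp2b9* was called over the other 5 times (3.60, adjusted p = 0.014), where its THRBKO mean was higher at 5 of 5 times. Members of these families share sequence, and their reads can be exchanged. *Cyp3a25* was not of this kind, with 869, 900 and 949 CPM in THRBWT and 1282, 930 and 1348 CPM in THRBKO livers. THRBKO a also had the lowest summed level of the 23 male-biased genes, 22193 CPM beside 28449 to 32716 CPM in THRBWT and 30605 and 31270 CPM in THRBKO c and b. The medians were -0.14 for the male-biased genes and 0.27 for the 13 tested female-biased genes, and no male-biased gene had an unadjusted p under 0.05. Without THRBKO a these medians were -0.060 and -0.15, so that the sign for the female-biased genes turned. Without THRBKO b or THRBKO c the male-biased median was -0.31.

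Among 33 conjugation and antioxidant genes (median 0.12), 5 lay without overlap above the controls (3.85% of all genes did). *Sult5a1*, a sulfotransferase, had 28.8, 17.1 and 22.0 CPM in THRBWT and 41.1, 61.4 and 41.1 CPM in THRBKO livers (log2 fold change 1.077, SE 0.335, unadjusted p = 0.0032), with 0.65 at the other times (adjusted p = 0.0396). *Nqo1*, a quinone reductase, had 6.06, 3.91 and 6.62 against 10.3, 6.68 and 9.26 CPM (0.66). *Gstt1*, a glutathione transferase, had 326, 246 and 292 against 446, 295 and 380 CPM with overlap (0.38). *Ugt2b1*, a glucuronosyltransferase, had a log2 fold change of -0.34 (unadjusted p = 0.0439).

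Of 31 genes of the urea cycle and amino acid breakdown, 25 had a log2 fold change below 0 (52.3% of all genes had), with a median of -0.14, and 5 had an unadjusted p under 0.05, all lower in THRBKO livers (2.13% of all genes were). *Gpt*, alanine aminotransferase, had 436, 330 and 350 against 351, 288 and 262 CPM (-0.31, unadjusted p = 0.0128). *Got1*, aspartate aminotransferase, had 476, 365 and 159 against 182, 273 and 185 CPM (-0.65, unadjusted p = 0.0362). *Ass1*, an enzyme of the urea cycle, had 4967, 3549 and 2450 against 3136, 2532 and 2764 CPM (-0.38, unadjusted p = 0.0405). *Prodh*, described above, was also among them. In *Gpt*, *Got1* and *Ass1*, THRBWT c lay within or below the THRBKO range, and THRBWT a was the highest library. For *Gpt*, THRBWT b, at 330 CPM, also lay within the THRBKO range of 262 to 351 CPM. The summed level of the list was 38469, 33423 and 25804 CPM in THRBWT and 29161, 30044 and 26311 CPM in THRBKO livers. At the other times the list median was 0.045. The ZT10 median was -0.022 without THRBWT a and -0.27 without THRBWT c. Without THRBWT a the log2 fold changes of *Ass1*, *Got1* and *Prodh* were -0.094, -0.30 and -0.30, and without THRBWT c those of *Ass1* and *Got1* were -0.60 and -0.98. The 7 hepatocyte markers all had values below 0 at ZT10 (median -0.24), with summed levels of 79030 to 85179 CPM in THRBWT and 70044 to 83462 CPM in THRBKO livers, and their part in the result was not tested.

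Of 30 interferon-stimulated and antigen presentation genes, 26 had a log2 fold change above 0 (47.7% of all genes had), with a median of 0.22 beside -0.013 at the other times. The ZT10 median was 0.41 without THRBWT a, 0.16 without THRBWT b, 0.11 without THRBWT c and 0.13 without THRBKO a. *Gbp3*, an interferon-induced GTPase, had 7.40, 4.91 and 5.09 CPM in THRBWT and 12.7, 9.60 and 8.03 CPM in THRBKO livers (0.80, SE 0.256, unadjusted p = 0.0040). *Irf1*, a transcription factor of the interferon response, had 26.7, 28.4 and 32.9 against 49.9, 34.6 and 40.3 CPM (0.50, unadjusted p = 0.0184). Both were without overlap. The class II genes *H2-Aa*, *H2-Ab1* and *Cd74* had log2 fold changes of 0.46, 0.51 and 0.40, with unadjusted p-values of 0.127, 0.102 and 0.185. The summed level of the list overlapped, with 4035 to 5129 CPM in THRBWT and 4476 to 5459 CPM in THRBKO livers. Markers of non-parenchymal cells were divided. Of these, 10 of 10 endothelial, 10 of 11 macrophage, 7 of 8 T and NK cell and 6 of 7 B cell markers had values above 0. By contrast, 3 of 10 stellate cell and fibroblast markers (median -0.12) and 2 of 7 cholangiocyte markers (median -0.091) had values above 0. So had 0 of 6 erythroid (median -0.42), 1 of 2 neutrophil and 3 of 6 dividing cell markers, and 47.7% of all genes. At the other times the medians were -0.0061 for endothelial, -0.11 for macrophage, 0.065 for T and NK cell and -0.10 for B cell markers. They were 0.073 for stellate cell, -0.13 for cholangiocyte and -0.33 for erythroid markers there. The endothelial sum was 294 to 342 CPM in THRBWT and 342 to 376 CPM in THRBKO livers, with *Pecam1* (log2 fold change 0.51) and *Clec4g* (0.29) at an unadjusted p under 0.05. The sums of the T and NK cell markers were 2.24 to 3.13 CPM in THRBWT and 3.001 to 3.82 CPM in THRBKO livers, those of the B cell markers 9.41 to 13.98 and 7.90 to 15.2 CPM. The part of these cells in the interferon values was not tested.

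Genes of stress and of glucocorticoid response varied among mice of the same genotype. The 15 tested glucocorticoid-responsive genes had 6 values above and 9 below 0. Their median was -0.081, and -0.29 to 0.19 with single libraries left out. The 18 immediate early genes had 10 values above and 8 below 0. Their median was 0.072, and -0.12 to 0.080 with single libraries left out. *Fkbp5*, a glucocorticoid-induced immunophilin, had 73.3, 58.2 and 90.3 CPM in THRBWT and 28.8, 58.4 and 46.7 CPM in THRBKO livers (log2 fold change -0.73, SE 0.306). *Hspa1a*, an inducible heat shock protein, had 2.65, 0.280 and 0.373 against 0.291, 0.227 and 0.299 CPM. Library THRBWT a alone set this difference, and without it the log2 fold change was -0.26. The immediate early gene *Btg2* had 10.8, 8.39 and 8.29 against 5.43, 7.79 and 6.84 CPM (-0.45), and *Jund* had 37.0, 28.8 and 39.8 against 29.9, 26.7 and 26.4 CPM (-0.35). In the acute phase list (26 tested, median -0.039), *Itih3* had 597, 604 and 602 against 494, 445 and 361 CPM (-0.47, unadjusted p = 0.0071) and *Saa4* had 403, 259 and 258 against 243, 232 and 208 CPM (-0.43, and -0.18 without THRBWT a). *Itih3* lies 12.9 Mb from *Thrb*. Heat shock and cold-inducible genes (15 of 17 below 0, median -0.16, and -0.063 without THRBWT a) and the unfolded protein response (16 of 20 below 0, median -0.10) had no other member at an unadjusted p under 0.05. The remaining lists were the acyl-CoA synthetases, thioesterases and acyltransferases (23 tested, median -0.044, no member at that p), insulin signalling and feeding response (24 tested, median 0.062, with *Trib3* at 0.53) and the growth hormone and IGF axis (18 tested, median -0.079, with *Igfbp4* at -0.24).

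**Figure D3:**
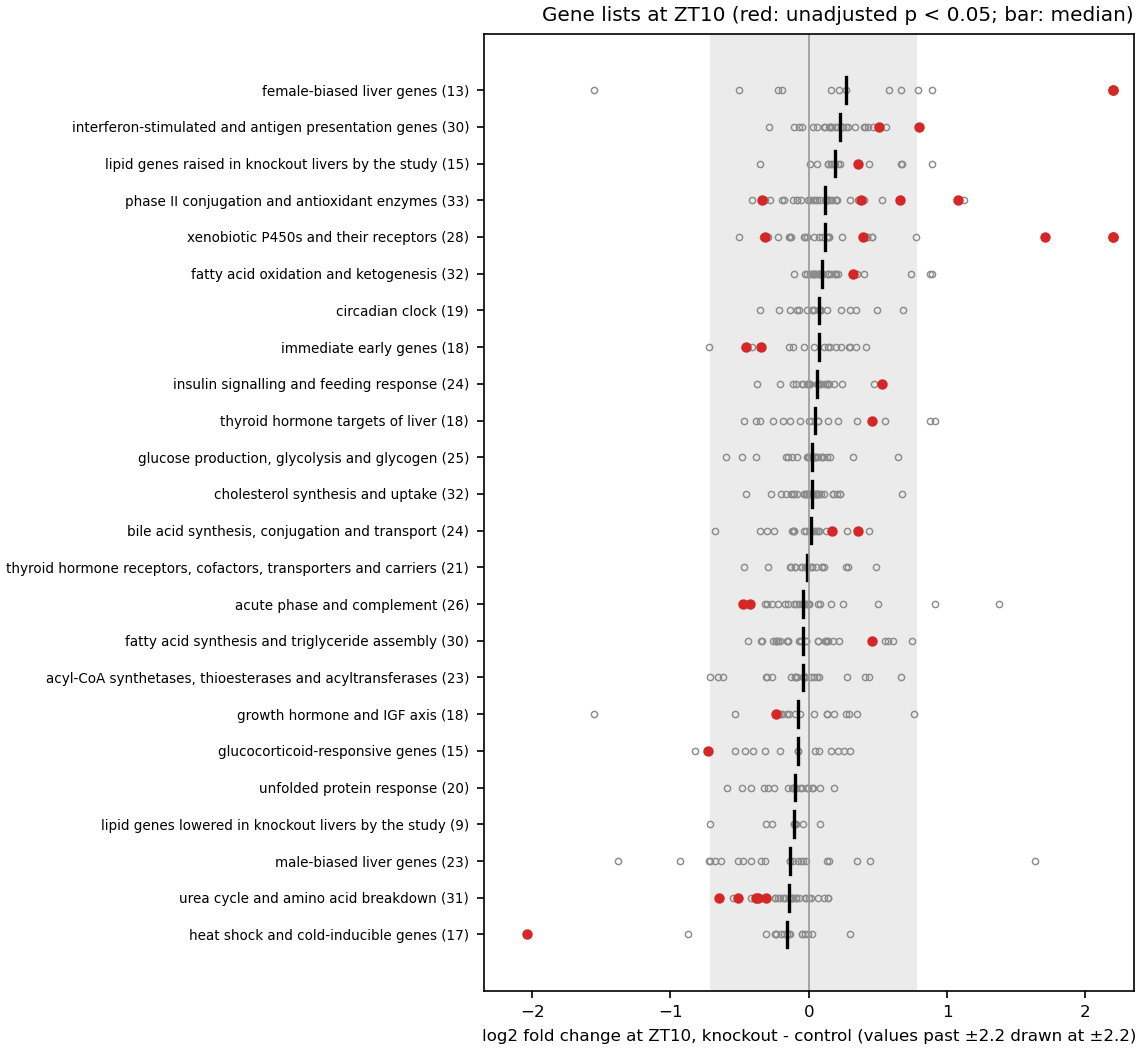
Log2 fold change at ZT10 (x axis, THRBKO minus THRBWT) of each tested member of the 24 lists (y axis, number of tested members in parentheses), with members at an unadjusted p under 0.05 in red, list medians as black bars, and the range of 95% of all genes (-0.71 to 0.77) shaded. The medians lie between -0.16 and 0.27, and the points drawn at the right limit are *Cyp2b9* and *Cyp2b13*, which belong to 2 lists each.

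No gene was called by the test of the ZT10 difference against the mean of the other 5 times (0 of 14193, 0.0%). Unadjusted p-values under 0.05 were found for 440 genes (3.1%), and DESeq2 called no gene either, with 430 (3.03%). With pairing by letter edgeR called 0 and had 654 (4.61%). The number of protein-coding genes called at a single time was 2 at ZT2 (0.0141%) and 1 (0.00705%) at each of ZT6, ZT10, ZT14, ZT18 and ZT22. ZT10 was thus not set apart by the number of calls, each of which rests on 3 mice per genotype.

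Genes named for a small p at ZT10 have a larger difference from the other times partly by that choice, so the following values are a description. *Epop* had an unadjusted p of 6.1e-04 for this difference, *Fzd8* of 0.0011, *Plin2* of 0.0117, *Fkbp5* of 0.013 and *Got1* of 0.029, each with an adjusted p of 1. *Fzd8* was highest at ZT10 in THRBWT livers, where its means from ZT2 to ZT22 were 12.5, 15.1, 21.5, 13.6, 13.3 and 13.2 CPM, and had no such value in THRBKO livers (15.8, 10.7, 11.5, 14.2, 13.6 and 13.4 CPM). *Fkbp5* means were 19.8, 16.2, 73.9, 89.6, 47.3 and 31.8 CPM in THRBWT and 22.3, 23.6, 44.7, 112, 38.6 and 33.4 CPM in THRBKO livers, with the peak at ZT14 in each genotype. *Got1* had 333 CPM at ZT10 in THRBWT livers, its highest mean, and 213 CPM in THRBKO livers, where the highest mean was 289 CPM at ZT14. By contrast *Ctsc* and *Pdp2* kept a similar difference over the day, with log2 fold changes from 0.42 to 0.89 and from 0.22 to 0.51 over the 6 times.

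**Figure D4:**
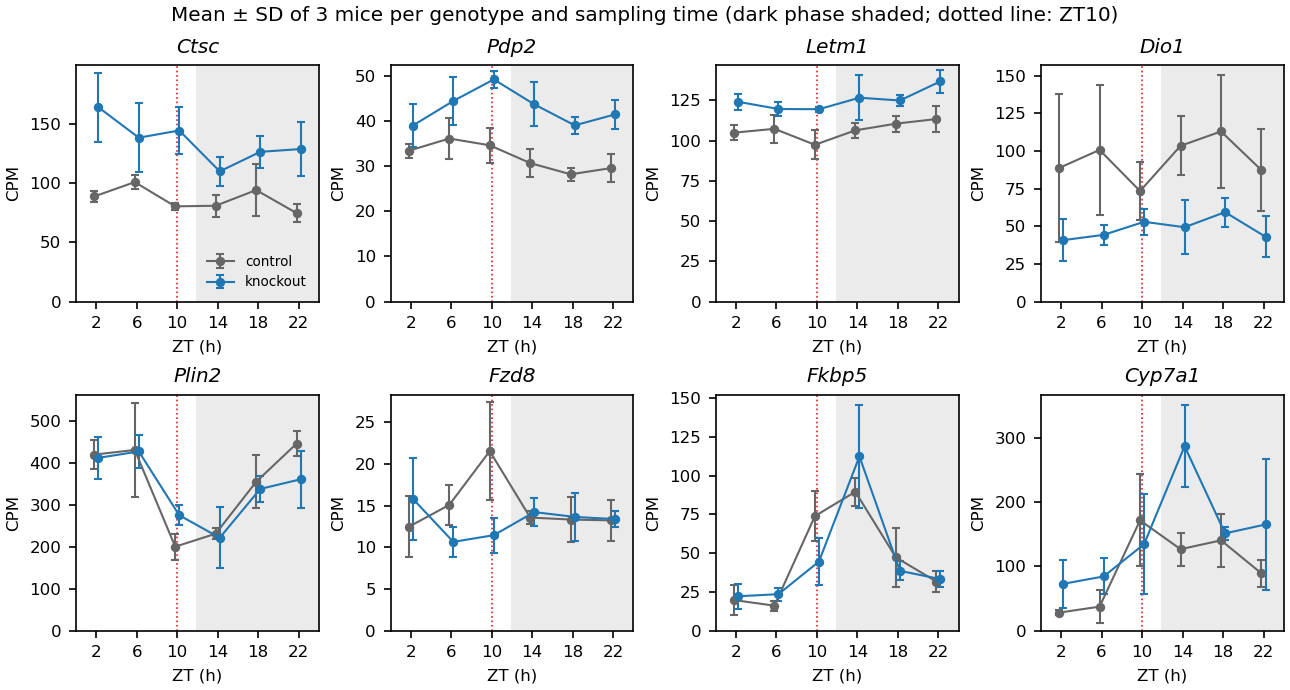
Mean CPM ± SD of 3 mice per genotype (y axis, linear from 0) at each sampling time (x axis, ZT in h; dark phase shaded, ZT10 dotted) for 8 genes, THRBWT (control) in grey and THRBKO (knockout) in blue. *Ctsc*, *Pdp2* and *Letm1* are higher and *Dio1* lower in THRBKO means at all 6 times, whereas *Plin2*, *Fzd8*, *Fkbp5* and *Cyp7a1* cross over the day.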

How the data were processed

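Liver RNA of 36 mice was sequenced by the authors from poly-A selected, non-directional TruSeq libraries with paired-end reads. The authors mapped quality-filtered reads to GRCm38/mm10 by HISAT2, then obtained a count for each gene from featureCounts. Software versions are not given in the sources used here. They deposited raw counts per gene without normalization, and these counts were the only values used. Groups were taken from the sample titles, and no pooled columns or columns of other samples were present.

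Genes reaching 100 counts in total across all 36 libraries entered 1 fit of all 12 genotype-by-time groups (24 residual degrees of freedom) by edgeR 4.0.16 (TMM scaling, then glmQLFit with glmQLFTest, under R 4.3.3 and limma 3.58.1) and Benjamini-Hochberg adjustment over the 17994 tested genes of every biotype and a threshold of 0.05. Protein-coding genes are printed. Contrasts were THRBKO minus THRBWT at ZT10, the mean of the 5 other differences, and the former minus the latter. No overlap means that the 3 CPM values of a genotype all lie above or all below those of the other. The fit was tested on simulated counts. The depth of 31931089 to 39913574 counts limits precision for genes with few counts.

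Genes were named by a rule: all called genes, the 10 smallest p without overlap and with a mean of at least 50 counts, *Thrb*, *Dio1*, and in each list up to 3 members with the largest absolute log2 fold change at an unadjusted p under 0.05. Other genes, including those called at the other times and those near *Thrb*, were named after their values were seen. Members, lists and tests were chosen with earlier results of these data known.

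Mice carry the letters a, b and c at each time. At ZT10, log2 CPM deviations from the genotype mean correlated between same-letter mice at 0.356 (a), 0.268 (b) and 0.269 (c) over 11312 genes, all over 0.1. A fit with the letter within each time as a block, which takes same-letter mice as pairs, was therefore an alternative. The main fit did not pair the mice. At the other times 12 of 15 correlations were over 0.1. What the letters stand for is not given in the labels. Libraries of a genotype at ZT10 differed by more than sampling noise (chi-square per gene 33.4 to 82.2), so none was a repeat. The mice are separate animals. Alternatives were DESeq2 1.42.0, its size factors, other count filters, protein-coding genes alone, robust estimation, the ZT10 libraries alone, and leaving out each ZT10 library. Transcripts were aligned with BLAST 2.17.0, and Python 3.11.15 was used with pandas 2.3.3, numpy 2.4.6 and matplotlib 3.10.9.

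Some members of the lists are counted but not reported by name.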

Additional observations from a re-analysis of the deposited data

How the results depend on the processing

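The number of protein-coding genes called at ZT10 was 1 with DESeq2, its size factors, filterByExpr and robust estimation. It was 0 with the ZT10 libraries fitted alone, 0 with protein-coding genes tested alone, 0 with the replicate block, 2 with genes of a sum of at least 1 count, and 0 to 2 when single ZT10 libraries were left out. The adjusted p of *Ctsc* was 0.107 with protein-coding genes alone and 7.0e-04 with DESeq2. The number called over the other 5 times was 73, and 207 with DESeq2, 114 with a sum of at least 1 count, 270 with the replicate block and 66 to 88 when single ZT10 libraries were left out, which enter only through the shared spread. The test of ZT10 against the other times called 0 genes in every alternative run for it. The share of genes called at the other times that had the same direction at ZT10 was 94.5%, with 82.6% (223 of 270) under the replicate block as its lowest value and 97.0% without THRBKO c as its highest. These shares were added after the data were seen. For 36 named genes, 503 log2 fold changes were recomputed, of which 492 kept direction and call, 8 lost the call (*Ctsc*) and 3 reversed, all without THRBKO a, so that the range with single libraries left out was -3.54 to 5.74 for *Cyp2b13*, -1.03 to 4.04 for *Cyp2b9* and -0.076 to 2.36 for *Cyp2a22*. Of 336 list medians, 327 moved by less than the spread between replicates. Beyond the values given in the report, the replicate block changed no call of a named gene. With 3 mice per genotype a missed threshold does not show equal levels, and genes with few counts, such as *Cyp2b13*, are limited by depth.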
